A study of Homo sapiens with 6 samples.

Results

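C2 and CFB are neighbouring complement genes on chromosome 6, in the class III region of the major histocompatibility complex (MHC), a gene-dense stretch that also holds RNF5. They were taken by gene name from a table of 1877 genes, in which each appears in 1 row (C2, ENSG00000166278, and CFB, ENSG00000243649). The study compared LP-1 cells, an established human multiple myeloma line, carrying a short hairpin RNA against RNF5 (RNF5 KD, n = 3 libraries) with LP-1 cells carrying a non-target control (Ctrl, n = 3). RNF5 encodes a ubiquitin ligase anchored in the membrane of the endoplasmic reticulum. The sources used here name neither the hairpins, nor the harvest time, nor the cultures behind the libraries of a group, so a p-value reflects no more than the spread among the 6 libraries, which may be technical.

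Complement is a cascade of plasma proteins that marks and lyses microbes and damaged cells. C2 is the catalytic subunit of the convertase of the classical and lectin pathways, and factor B, the product of CFB, is its counterpart in the alternative pathway. The proteins are homologous serine proteases, and each is cleaved to become part of an enzyme that splits C3. The liver makes most of the circulating supply, while macrophages and many other cells express the genes locally, and interferon-gamma and inflammatory cytokines are known inducers of both.

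The annotation matters for reading the values, because the genes lie head to tail on the same strand. In GENCODE 29 the span of CFB starts 23 bases before the span of C2 ends. A further gene, AL645922.1 (ENSG00000244255), reads through from C2 into CFB with 2 transcripts, and it was not among the listed genes. Of the 31-base words of the longest coding C2 transcript (2850 bases), 61.1% also occur in the read-through transcripts, and for that of CFB (2862 bases) the share was 78.4%. C2 and CFB transcripts themselves shared 0 such words, so sequence similarity does not mix their reads at this length, while reads from a read-through transcript could be counted for either gene. The sources used here do not say how reads in such overlaps were assigned. The antisense gene C2-AS1, inside C2, was not listed either.

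The 250 bases before the RefSeq start of CFB are shown because this promoter carries the kinds of element through which interferon signals reach a gene. The window is chr6:31945845-31946094, plus strand, of GRCh38.p14, and capitals mark, in order, an interferon response element, a STAT palindrome and a TATA box. The letters searched, on both strands, were GAAANNGAA, TTCNNNGAA and TATAAA.
CFB: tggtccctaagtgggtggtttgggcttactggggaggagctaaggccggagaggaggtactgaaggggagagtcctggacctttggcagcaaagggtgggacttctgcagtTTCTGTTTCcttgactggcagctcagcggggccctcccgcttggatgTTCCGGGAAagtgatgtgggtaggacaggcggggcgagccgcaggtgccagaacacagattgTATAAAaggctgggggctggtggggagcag

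The matches begin 139, 92 and 30 bases before the start. Among 35116 RefSeq windows of the same length, 6.88% held the interferon response element, 6.57% the STAT palindrome and 10.7% the TATA box. C2 has 2 windows in the RefSeq table, at its upstream starts, chr6:31897533-31897782 and chr6:31900749-31900998, and neither held any of these 3 motifs. In GENCODE 29, 13 of the 17 C2 transcripts start more than 1000 bases from both of these starts, at sites with no window here. A heat shock element pair (GAANNTTC, in 5.78% of windows) was in none of the 3 windows of C2 and CFB. A loose NF-kB motif (GGG and CC with 5 bases of any kind between them, in 54.4% of windows) had 4 matches in the CFB window, 2 of them overlapping, 1 in the C2 window that starts at 31897533 and none in the other. A match is a description of letters and does not show binding, and the values below do not say which start was used.

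Both members were lower in the RNF5 knockdown. C2 abundance fell 2.71-fold, and CFB, too low for the planned test, averaged 2.04-fold less. In the control libraries C2 was at 4.02, 3.64 and 1.50, and in the knockdown libraries at 1.45, 1.15 and 0.78. All values are normalized abundances whose scale and sequencing depth are unknown. No C2 value of the knockdown reached a control value, but the gap was narrow: control library 3, at 1.50, was only 1.03-fold above knockdown library 1.

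The C2 mean went from 3.05 ± 1.36 to 1.13 ± 0.336 (SD, n = 3 libraries each). On the log2(value + 1) scale, which understates the change of low genes, the fold change was -0.88 (SE 0.25, limma adjusted p = 0.00542). An exact 2-sided permutation test of C2 alone gave p = 0.1, the smallest value that 3 against 3 libraries allow. Most of the spread in the control came from library 3, which was also the lowest control in 66.1% of the 1290 tested genes. Without that library the log2 fold change of C2 was -1.19 (limma adjusted p = 0.000459), and the ratio of means was 3.40-fold.

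CFB was at 1.15, 1.41 and 0.87 in the control libraries and at 0.66, 0.67 and 0.35 in the knockdown libraries. The groups did not overlap here either, and the lowest control value was 1.30-fold above the highest knockdown value. The CFB mean was 1.14 ± 0.270 in the control and 0.560 ± 0.182 in the knockdown (SD, n = 3). Only 2 of 6 libraries reached a value of 1, so CFB did not pass the filter of 1 in at least 3 libraries and had no adjusted p in the main fit. Its log2 fold change was -0.46, and the exact 2-sided permutation test gave p = 0.1, again the smallest possible. With no filter on low values, limma gave an adjusted p of 0.0146 at the same fold change.

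**Figure D1:**
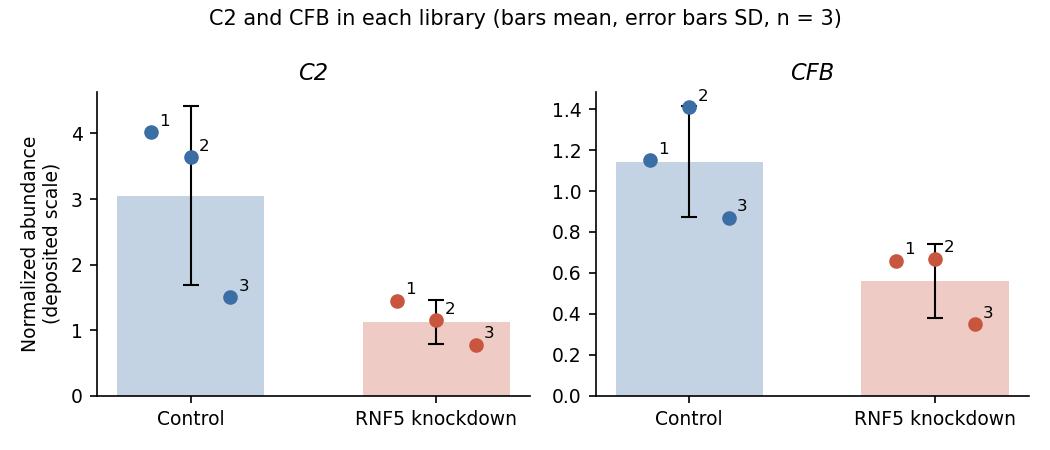
Normalized abundance (vertical axis, deposited scale) of C2 and CFB in the control and RNF5 knockdown libraries. Points are libraries labelled by replicate number, bars are means and error bars SD (n = 3). Every knockdown point lies below every control point, C2 control library 3 (1.50) sits close to the knockdown libraries, and library 3 is the lowest of each group for both genes.

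These calls have to be read against the table they come from. The authors had listed only genes past a deposited 2-fold difference and an adjusted p under 0.05 on these same libraries, so neither member's difference is independent evidence of a change. Of the tested genes, 97.7% passed limma in either direction, 42.0% passed as lower, and with no filter 47.0% passed as lower. The share of listed genes whose knockdown values all lay below the control values was 45.5%, and the authors listed 50.8% as lower. A lower value with separated groups was therefore common among the listed genes. Genes outside the table were not analysed here.

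By the authors' deposited table, C2 had a log2 fold change of -1.43 (adjusted p = 0.000439) and CFB of -1.52 (adjusted p = 0.0174). Neither was extreme among the 953 genes they listed as lower: 577 of these had a larger deposited fall than C2 and 537 a larger one than CFB. The library values put the members in the other order. The log2 ratio of the library means was -1.44 for C2, 0.01 from the deposited value, and -1.03 for CFB, which is 0.49 above the deposited value. A larger gap between the ratio and the deposited value was found in 16.4% of the lower genes with a ratio, so the CFB gap was wide but not rare. Which of the values describes CFB better cannot be told from the table.

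Whether C2 changed more than CFB was tested on their ratio within each library. The log2 ratio of (C2 + 1) to (CFB + 1) was 1.22, 0.95 and 0.42 in the control libraries and 0.56, 0.36 and 0.40 in the knockdown libraries. Control library 3 lay inside the knockdown range, so the groups overlapped. The mean difference was -0.42, and an exact 2-sided permutation test gave p = 0.2. A difference between the changes of the 2 genes was thus not detected, which does not show that they changed alike. Without control library 3 the difference was -0.64, with an exact permutation p = 0.1, the smallest value that design allows. The added 1 shrinks the change of CFB, whose values are lower, more than that of C2. An equal proportional fall of both genes would therefore already give a negative difference. With a pseudocount of 0.1 the difference was -0.35 and with 0.5 it was -0.43 (exact permutation p = 0.3 in both). The ratio serves only to compare changes, within that limit, since levels of different genes cannot be compared on a scale whose treatment of length is unknown.

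C2 and CFB shared a pattern within the groups. Library 3 was the lowest of its group for both genes, in the control and in the knockdown. In the knockdown, C2 stood at 47.5%, 37.7% and 25.5% of its control mean and CFB at 57.7%, 58.6% and 30.6%. That position was common for control library 3 (66.1% of the tested genes) and less so for knockdown library 3 (24.3%). The 6 libraries fall into the 2 groups, so no pooled correlation is given.

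The complement genes listed beside C2 and CFB went both ways. Of 54 other genes in lists covering the cascade, 7 were in the authors' table, with C1S, CLU and CD55 lower and C1RL, CFHR3, CSMD1 and C3AR1 higher by the deposited fold changes. C1RL, CFHR3, CLU, CD55 and CSMD1 were high enough to test. The first 2 rose and CLU and CD55 fell by limma, while CSMD1 entered the test through its knockdown values alone. The other 47 complement genes, C3, C5, C4A, C4B and all 6 terminal components among them, were outside the table, and nothing can be said of their change.

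The protease genes C1S and C1RL went apart. C1S, the protease of the C1 complex that cleaves C2 and C4, was at 1.20, 0.92 and 1.55 in the control and at 0.46, 0.14 and 0.15 in the knockdown. It had no adjusted p in the main fit because of its low level. C1RL, which encodes a C1r-like protease, rose 2.28-fold from 7.92 ± 2.54 to 18.1 ± 2.24 (limma adjusted p = 0.000552, log2 fold change 1.13).

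Among regulators, CD55, a membrane protein that speeds the decay of the convertases built from C2 and factor B, was at 36.91, 30.38 and 26.64 in the control. In the knockdown it was at 13.95, 18.20 and 13.93, a 2.04-fold fall with no overlap (limma adjusted p = 0.000547, log2 fold change -0.98). CD55 was thus lower in the same 3 libraries as the genes of both convertase proteases. CLU, which encodes clusterin, a soluble inhibitor of the terminal complex and an extracellular chaperone, fell from 12.82, 3.38 and 3.64 to 2.60, 0.24 and 0.44 (limma adjusted p = 0.00231). Its groups did not overlap, but replicate 1 was several times above the others in both groups, and 2 of its 3 knockdown values lay under 1.

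The factor H-related gene CFHR3 rose from 2.81 ± 1.20 to 9.99 ± 1.59 (limma adjusted p = 0.000156, log2 fold change 1.57). Reads of CFHR3 can be shared with closely related genes of its family, so its level is uncertain. CSMD1, a large membrane protein with complement control domains, rose from 0.34, 0.63 and 0.10 to 1.52, 2.12 and 2.64 (limma adjusted p = 0.000109, log2 fold change 1.19). CSMD1 was below 1 in every control library and passed the filter through the knockdown libraries alone, so it could only differ upwards. C3AR1, the receptor for the C3a fragment, was at 0.75, 0.08 and 0.07 in the control and 0.95, 1.06 and 2.23 in the knockdown, too low for the main fit.

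**Figure D2:**
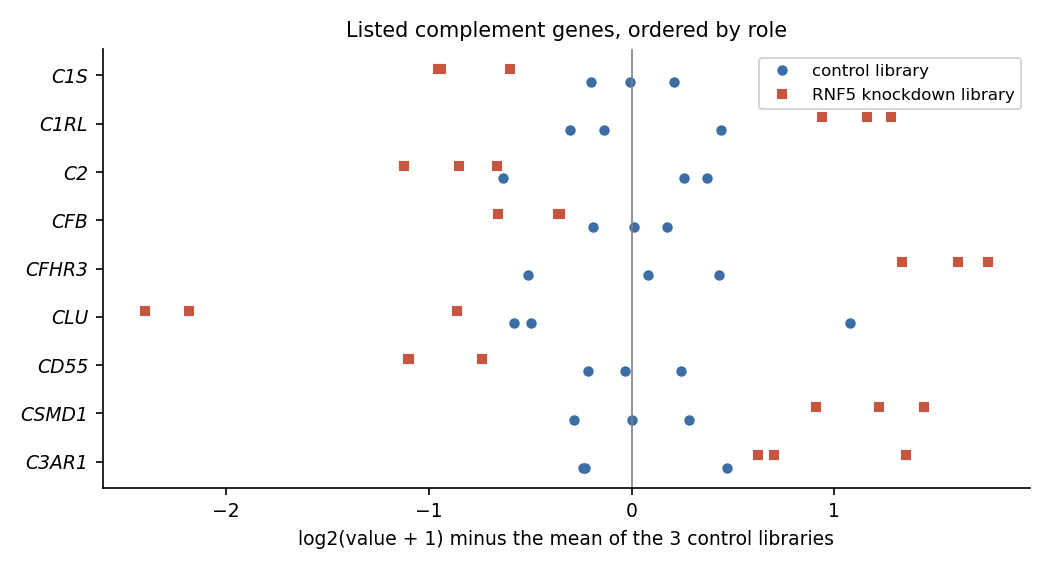
Change of each listed complement gene, as log2(value + 1) minus the mean of the 3 control libraries (horizontal axis), with control libraries as circles and RNF5 knockdown libraries as squares. C1S, C2, CFB, CLU and CD55 lie to the left of their controls and C1RL, CFHR3, CSMD1 and C3AR1 to the right, and C2 and CFB show smaller shifts than CLU.

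C2 and CFB lie in a stretch whose listed genes were all lower. In GENCODE 29, 65 protein-coding genes run from MICB to RNF5, and 16 of these lie between CFB and RNF5. The authors' table held 11 of the 65, and all 11 were lower in the knockdown, RNF5 and both members included. On the rest of chromosome 6 the listed protein-coding genes were 32 higher and 32 lower, and over all chromosomes they were 516 higher and 752 lower. The stretch was bounded by a list drawn up with earlier results of these data known, and its other 54 genes have no values here, so these counts are a description with no test.

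RNF5, the targeted gene, was at 1595, 1649 and 1248 in the control and at 95.40, 81.35 and 88.44 in the knockdown, which left 5.90% (limma adjusted p = 1.34e-08, log2 fold change -4.06). The libraries therefore match their labels. None of the other 10 listed genes of the stretch changed as far. In the list of 59 class III genes other than RNF5, C2 and CFB, 7 were in the table, all 7 were tested and all 7 fell. Their median log2 fold change was -0.91, against -0.88 for C2, on a scale that understates the change of low genes such as C2. With a pseudocount of 0.1 the median was -1.04 and C2 was at -1.28, so the closeness depends on the scale. Every listed gene had passed a deposited 2-fold difference, so a negative median of 7 lower genes follows from that selection. The median over all genes tested was 0.73, but it mixes higher and lower genes and is no reference for the 7. The overall median also moves with the choice of genes and libraries. It was -0.10 with no filter, 0.50 with median scaling and between 0.16 and 0.27 without 1 knockdown library. The median of the 7 lay between -0.89 and -0.94 with no filter or without 1 knockdown library, and at -1.27 with median scaling.

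Of the 16 genes between CFB and RNF5, only TNXB was listed. TNXB encodes the matrix protein tenascin-X and fell from 12.71, 10.43 and 8.79 to 3.38, 5.76 and 3.90 (limma adjusted p = 0.000544, log2 fold change -1.13). The groups stood clearly apart, although part of TNXB has a near-identical pseudogene copy, so its level is uncertain.

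On the other side of C2 lie the HSP70 genes. HSPA1B, a stress-inducible chaperone, fell 6.83-fold from 360 ± 88.8 to 52.8 ± 5.55 (limma adjusted p = 1.52e-06, log2 fold change -2.72). The nearly identical HSPA1A was listed at 2.18 ± 0.424 and 0.920 ± 0.322, and reads of the pair cannot be told apart with certainty. HSPA1L, a related chaperone, fell from 6.89 ± 1.68 to 3.79 ± 0.197 (log2 fold change -0.70).

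SNHG32, a host gene of small nucleolar RNAs next to the HSP70 genes, fell 1.92-fold from 524 ± 133 to 273 ± 9.67 (log2 fold change -0.91, and -0.32 with quantile normalization). Unlike C2 and CFB, SNHG32 was highest in control library 3, at 676. NFKBIL1, which encodes an IkB-like nuclear protein, fell 2.06-fold to 36.4 ± 2.99 (limma adjusted p = 0.000202, log2 fold change -1.02). MICB, a stress-induced ligand of the NK cell receptor NKG2D, fell 1.71-fold to 21.7 ± 0.362 (limma adjusted p = 0.00443, log2 fold change -0.72). A read-through gene, ATP6V1G2-DDX39B, was listed as well and named after its values were seen, at 11.5 ± 2.26 and 6.27 ± 1.67.

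**Figure D3:**
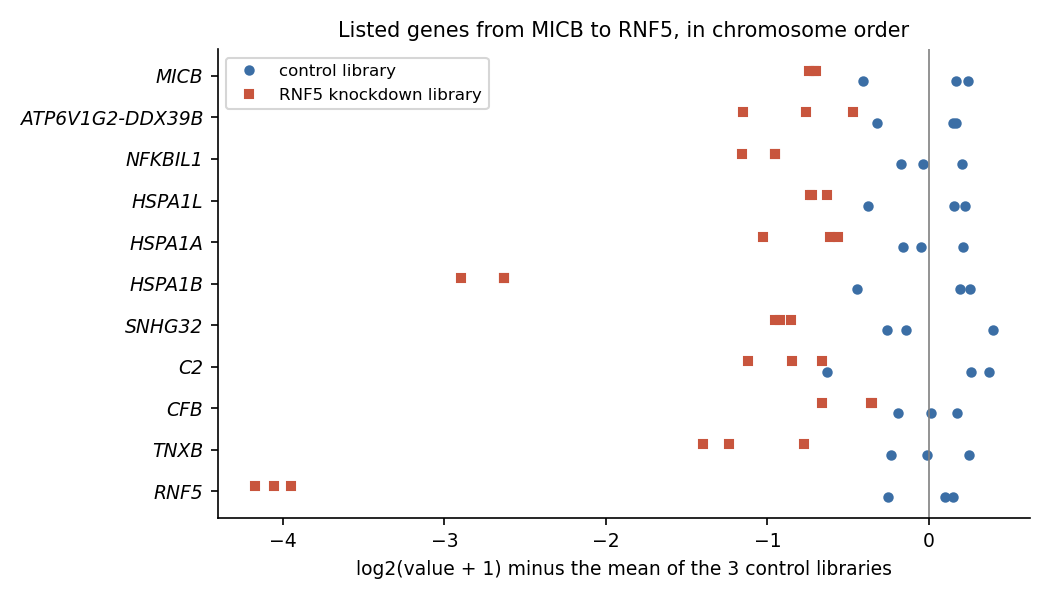
Listed genes from MICB to RNF5 in chromosome order (vertical axis), each library drawn as log2(value + 1) minus the mean of the 3 control libraries (horizontal axis). Knockdown squares lie left of the control circles in all 11 genes, and RNF5 and HSPA1B shift most. On this scale C2 (-0.88) lies amid the others. CFB (-0.46) shifts least on this scale, which understates the change of low genes. By the ratio of means only RNF5 and HSPA1B fell further than C2 (2.71-fold). The smallest fall by that ratio was that of MICB (1.71-fold), against 2.04-fold for CFB.

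Genes of the signals known to induce C2 and CFB were mostly absent from the table. Of 34 genes of interferon, IL-6 and NF-kB signalling, 3 were listed. CEBPB, a transcription factor of the acute-phase response, went down from 136 ± 29.2 to 71.5 ± 11.9 (limma adjusted p = 0.000929, log2 fold change -0.91), but did not pass with quantile normalization (-0.43, adjusted p = 0.0725). REL, an NF-kB subunit, rose from 5.74 ± 1.87 to 13.9 ± 1.71 (limma adjusted p = 0.000457), and CIITA, the transactivator of MHC class II genes, rose from 5.43 ± 1.26 to 17.9 ± 2.58 (limma adjusted p = 4.50e-05). None of 30 genes in a separate list of interferon-gamma-inducible genes, which did not hold CIITA, was in the authors' table. Their absence says nothing of their change.

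Plasma proteins of the acute phase, which hepatocytes make alongside complement, were listed in 3 of 20 cases, all lower and all too low to test. HP, which encodes haptoglobin, was at 1.27, 0.95 and 0.46 in the control and at 0.09, 0.13 and 0.13 in the knockdown. HPX, the gene of hemopexin, was at 0.91, 0.29 and 0.92 against 0.30, 0 and 0.29, which overlap. SERPINA3, a protease inhibitor gene, was at 0.20, 0.55 and 0.40 and was listed at 0 in every knockdown library.

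Markers of other cells that produce complement were looked at for the same libraries. Of 12 hepatocyte markers, 3 were listed, with a summed value between 2.85 and 4.63 in the control and between 1.56 and 3.43 in the knockdown. ALB, the albumin gene, went from 1.92 ± 0.629 to 0.987 ± 0.316 with touching groups (limma adjusted p = 0.0145). The ALB call was lost without knockdown library 1 (limma adjusted p = 0.0753) or control library 1 (0.0572). CYP2E1 did not pass (limma adjusted p = 0.128), except without knockdown library 2 (0.0192) and with quantile normalization, median scaling or the length trend removed. APOB was at 0.05 or less in every library. Their part in the lower values of C2 and CFB was not tested. None of 14 macrophage and monocyte markers and none of 8 T and NK cell markers was listed, which says nothing of their level. Of 10 stromal and endothelial markers, PECAM1, which myeloma cells can also express, rose to 5.08 ± 0.805 (limma adjusted p = 0.000219), and COL1A1 was at 0.593 ± 0.125 and 0.217 ± 0.197. Of 10 plasma cell markers, SDC1, the gene of CD138, was listed, present in all 6 libraries and higher in the knockdown (12.1 ± 2.66 and 35.5 ± 1.16). DNAJA1, the co-chaperone gene of the study's title, fell from 81.9 ± 11.2 to 38.4 ± 2.75 (limma adjusted p = 0.000145).

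The genes whose profile was closest to C2, by the root mean square distance of centred log2(value + 1) over the 6 libraries and among 1077 named genes tested, were ITPKC (0.109), ZNF205 (0.114), LOXL2 (0.136), FKBP9 (0.157) and SQSTM1 (0.160). Each had its lowest control value in library 3, as C2 and 66.1% of the tested genes had. Genes picked for a profile like that of C2 are likely to share this trait. FKBP9, a peptidyl-prolyl isomerase of the endoplasmic reticulum, was at 3.97, 4.46 and 1.69 in the control. In the knockdown FKBP9 was at 1.53, 0.86 and 1.12. Its highest control value was in library 2 and its lowest knockdown value also in library 2, against libraries 1 and 3 for C2. SQSTM1, the autophagy receptor p62, fell from 338 ± 122 to 170 ± 3.71 (limma adjusted p = 0.00351, and 0.103 with quantile normalization). Closest to CFB were SKOR1 (0.0598), CPLX3 (0.108), ECM1 (0.114), GPR179 (0.123) and STON1 (0.141). SKOR1, a transcriptional corepressor gene, was at 1.33, 1.43 and 1.03 in the control and at 0.61, 0.73 and 0.35 in the knockdown. SKOR1, CPLX3, GPR179 and STON1 were below 1 in every knockdown library and passed the filter through the control libraries alone. These genes could therefore only differ downwards, and their likeness to CFB is a description. C2 was not among the 5 genes closest to CFB, and CFB, below the filter, could not be ranked for C2.

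The direction of both members held under each of the 16 other settings that gave a value, while the call for CFB did not. Most of these settings could not have reversed it. With separated groups, leaving out a library or changing the pseudocount keeps the sign. The filter, the trend and the replicate block leave the fold change as it was, and the deposited values are those by which the genes were listed. Only the scalings and the removed length trend could have reversed the direction. From the library values, C2 passed limma under every setting that kept it, with log2 fold changes from -0.69 to -1.28. CFB ranged from -0.36 to -0.93 and passed under the settings that let it into the test. These were no filter (adjusted p = 0.0146), quantile normalization (0.00400) and median scaling (0.00203). No deposited knockdown value of CFB reached 1, so a test entered through its control libraries could only find it lower. Both scalings were also computed on the listed genes alone, which had been selected as different.

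**Figure D4:**
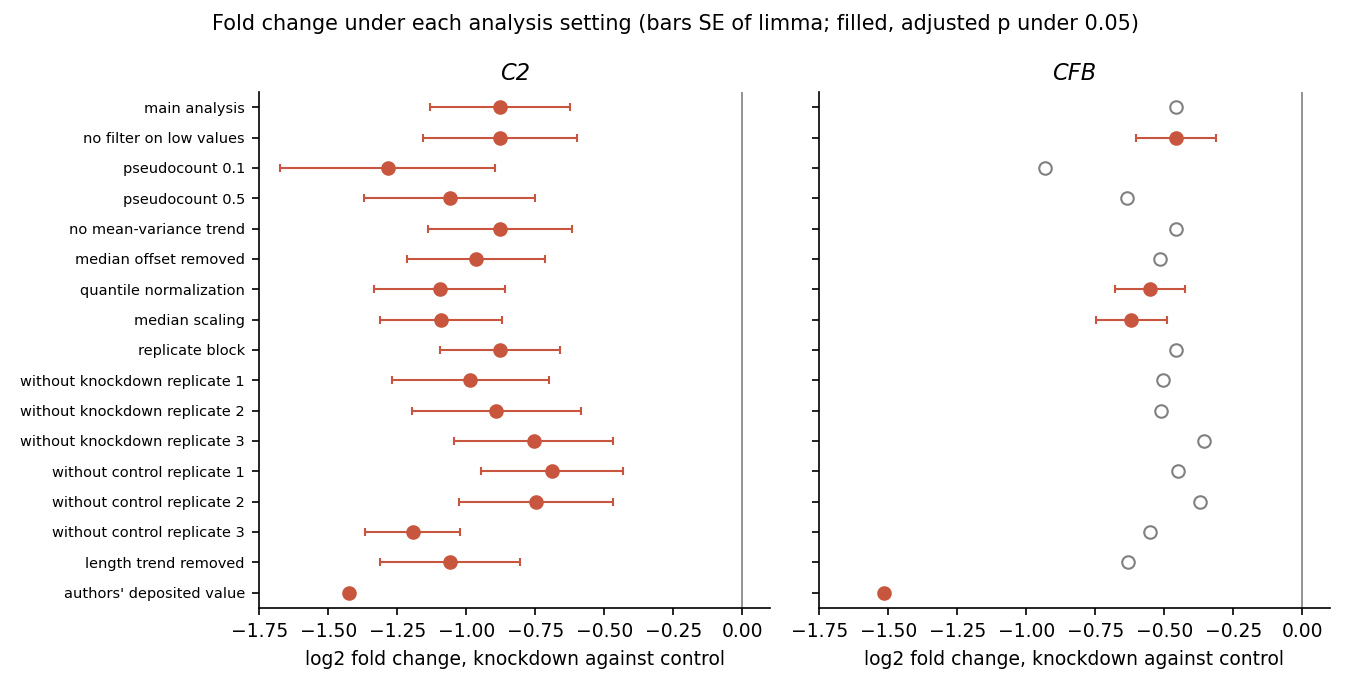
Log2 fold change of C2 and CFB, knockdown against control (horizontal axis), under each analysis setting (vertical axis), with bars for the SE of limma and filled points for an adjusted p under 0.05. All points lie left of 0, C2 is filled throughout, and CFB is filled only with no filter, quantile normalization, median scaling and in the authors' deposited values.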

How the data were processed

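RNA of 6 LP-1 libraries (3 RNF5 KD, 3 Ctrl) had been sequenced. Bowtie 0.12.2 and build hg19 are named in the submitters' processing notes without a step, so coordinates above are those of the RefSeq table (GRCh38.p14) and not of the authors' alignment. Per the file headers, the authors deposited a normalized signal per gene and library, group means, a fold ratio, its log2 value, a p-value and an adjusted p-value. The sources used here give no scale, depth, counting method or test. The table holds 1877 selected genes.

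Values were tested on log2(value + 1) by limma 3.58.1 (R 4.3.3, mean-variance trend, group as the only term). Tested were the 1290 genes that reached 1 in 3 libraries. Benjamini-Hochberg adjustment ran over all genes tested, with a threshold of 0.05. Single values had exact 2-sided permutation tests. The test was also run on simulated data in which most genes did not change. The listed genes were all selected as different, so that check does not bear on the calls made here. The members and the 16 gene lists were chosen with earlier results of these data known. Named were the members, RNF5, DNAJA1, all listed complement and MHC class III genes, up to 4 of each other list by mean, and the 5 nearest profiles of each member. Alternatives changed the filter, the pseudocount (0.1 and 0.5), the trend, the scaling, the replicate block and the libraries used. Removal of a trend with exon length (GENCODE 29, 91.7% of genes matched) was added after seeing the data.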

Additional observations from a re-analysis of the deposited data

How the results depend on the processing

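C2 kept its direction and its call in every alternative that kept the gene, although most alternatives could not have reversed the direction. CFB, which the low-value filter left out of the main test, passed with no filter (log2 fold change -0.46), with quantile normalization (-0.55), with median scaling (-0.62) and in the authors' deposited table (-1.52), because those settings test it. The limit given above on how CFB entered the test applies to its passes under the scalings. A filter of 5 in 3 or more libraries removed both members, so it gave no value for them or for their ratio. With that filter fewer genes were tested, and 654 of 660 changed in place of 1260 of 1290. The changed complement genes were 3 in place of 6, which were all 6 tested in the main fit. These drops follow the number of genes that entered the test. The difference in the C2 to CFB ratio kept its sign throughout, a sign that the added pseudocount favours. Leaving out 1 library gave log2 fold changes from -0.69 to -1.19 for C2, from -0.36 to -0.55 for CFB and from -0.24 to -0.64 for the ratio. The median offset was the median gap between the log2 ratio of means and the deposited log2 fold change, 0.17 over 431 genes. Dividing the knockdown values by this offset moved the median log2 fold change of tested genes by -0.11, with 1266 genes tested in place of 1290. C2 then stood at -0.97 and CFB at -0.52. Same-numbered libraries did not deviate together (correlations -0.16, -0.07 and -0.08 over 1290 genes), so the numbers give no pairing. With the replicate block, C2 stayed at -0.88 and 1272 genes passed. Depth is unknown, so no counting error can be given for the low values of CFB.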
